A study of Mus musculus with 17 samples.

Results

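The macrophage genes are C1qa, C1qb, C1qc, Lyz2, Cd14, Ctss, Laptm5, Csf1r, Cd68 and Tyrobp, and they were followed through every probe annotated with one of these symbols. Of these 10 genes, 8 had a probe among the 25697 probes of the mouse Illumina array, which carry 16593 gene symbols. Their 10 probes, 3 of them for Lyz2, all passed the filter on low values. Csf1r and Cd68 were not analysed here. The series has 17 arrays with 1 array per condition. Bone marrow cells (TO_BMC), embryonic fibroblasts (TO_MEF) and neural stem cells (TO_NSC) labelled as Tetracycline Oct4, that is with an inducible Oct4, were each measured at 0, 6, 12 and 24 h. Wild-type fibroblasts (Ctrl_MEF) and wild-type neural stem cells (Ctrl_NSC) were measured untreated at 0 h and treated at 24 h, and untreated embryonic stem cells (ESC) once. No wild-type bone marrow culture is among the samples used here. The labels name no inducing compound, sort, strain or number of animals, they mark even the TO_BMC, TO_MEF and TO_NSC arrays at 0 h as treated, and one source field gives the Ctrl_MEF 24 h array as 14. Times were taken from the titles.

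Macrophages are phagocytes of the myeloid lineage, and those that arise in bone marrow come from precursors that also form monocytes and granulocytes. Their receptors for microbes and immune complexes feed a lysosome rich in proteases and lysozyme, and they are a main source of the complement protein C1q. Embryonic fibroblast cultures are made from whole tissue and can carry tissue macrophages. C1qa, C1qb and C1qc encode the 3 chains of C1q, the protein that starts the classical complement pathway. Lyz2 encodes lysozyme M, which cuts bacterial cell walls, and Ctss encodes cathepsin S, a lysosomal protease used in antigen presentation. Cd14 encodes the co-receptor that hands lipopolysaccharide to Toll-like receptor 4. Tyrobp encodes DAP12, the signalling adaptor of activating myeloid receptors, and Laptm5 encodes a lysosomal membrane protein of haematopoietic cells.

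The 3 C1q genes lie next to one another on mouse chromosome 4, in the order C1qb, C1qc and C1qa between Ephb2 and Epha8. Laptm5 is on the same chromosome, Ctss on chromosome 3, Tyrobp on chromosome 7 and Lyz2 on chromosome 10. Promoter windows from 250 bases before to 50 bases after the gene's start were used from a RefSeq promoter table (GRCm38.p6) for the 6 of the 10 genes matched in it, namely C1qb, C1qc, Lyz2, Ctss, Laptm5 and Cd68. These windows, of which that of Cd68 belongs to a gene with no array values here, were searched on both strands for GAGGAAG, a core of the sites of PU.1, the factor of myeloid differentiation, and for TTNNGCAA, a C/EBP motif. GAGGAAG was found in 3 of the 6 windows, each time on the opposite strand, and in 13.6% of all 32851 promoter windows of the table. TTNNGCAA was found in 1 of the 6, that of Cd68, and in 10.8% of all windows. The 3 windows with GAGGAAG are shown 5′ to 3′ on the gene's strand, with the match in capitals as CTTCCTC: C1qc at chr4:136892865-136893164 (minus strand), Ctss at chr3:95526536-95526835 (plus strand) and Laptm5 at chr4:130913066-130913365 (plus strand).
C1qc: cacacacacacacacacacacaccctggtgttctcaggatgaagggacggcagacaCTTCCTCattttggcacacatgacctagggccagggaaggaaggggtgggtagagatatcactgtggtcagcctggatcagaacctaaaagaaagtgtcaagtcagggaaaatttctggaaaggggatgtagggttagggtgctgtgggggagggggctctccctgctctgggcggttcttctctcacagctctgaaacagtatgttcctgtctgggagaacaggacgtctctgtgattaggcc
Ctss: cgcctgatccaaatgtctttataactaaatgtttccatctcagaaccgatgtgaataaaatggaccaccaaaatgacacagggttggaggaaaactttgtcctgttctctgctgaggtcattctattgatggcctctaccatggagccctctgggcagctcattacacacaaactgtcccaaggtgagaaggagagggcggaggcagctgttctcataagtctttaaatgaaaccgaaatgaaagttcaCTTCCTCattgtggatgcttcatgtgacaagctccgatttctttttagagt
Laptm5: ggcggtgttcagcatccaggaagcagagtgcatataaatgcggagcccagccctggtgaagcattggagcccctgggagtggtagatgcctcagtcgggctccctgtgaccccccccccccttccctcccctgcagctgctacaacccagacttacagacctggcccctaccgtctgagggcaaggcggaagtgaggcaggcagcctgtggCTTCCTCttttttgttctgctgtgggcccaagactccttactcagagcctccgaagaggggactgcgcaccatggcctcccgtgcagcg
The match began 194 bases before the start in C1qc, 39 bases before it in Laptm5 and 1 base before it in Ctss. A match describes the letters of the window and is not a binding site.

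All values are log2 intensities after background correction and quantile normalization over the 17 arrays. A probe counted as detected on an array at a detection p under 0.01, and the lowest detected log2 signal of an array was between 5.36 and 5.67. Each array detected 10231 to 11082 probes. The 4 TO_MEF arrays were dimmer before normalization, with a mean raw intensity of 382 to 437 against 548 to 672 on the other 13. Pou5f1, the gene for Oct4, checks the labels and rose in all 3 transgenic lines (fitted log2 change 5.96 in TO_BMC, 5.87 in TO_MEF and 5.49 in TO_NSC, limma adjusted p of 2.93e-05 or less). All 13 pan-haematopoietic markers of a comparison list were detected on every TO_BMC array. In the TO_BMC cultures 15 or 16 of 20 other macrophage identity genes were detected, and so were 17 of 18 markers of neutrophils and their precursors at 0 h.

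All 8 genes were among the brighter signals of the TO_BMC arrays and kept their level through 24 h. The C1q chains were high. C1qb stood at 13.99, 14.17, 14.23 and 14.20 at 0, 6, 12 and 24 h in TO_BMC, C1qc at 14.01, 14.09, 14.11 and 14.09, and C1qa at 11.67, 11.75, 11.74 and 11.76. Each C1q chain thus varied by no more than 0.24 over the 4 times. Among the lysosomal genes, Lyz2 read 14.72, 14.70, 14.63 and 14.67 by its brightest probe in TO_BMC, and Laptm5 read 14.78, 14.78, 14.78 and 14.65. Quantile normalization gives probes of equal rank the same value, and Laptm5 held the same rank at 0, 6 and 12 h. Its raw intensity was 80.4 to 84.1% of the brightest probe of its array, and that of Lyz2 73.4 to 85.0%, so both were near the top of the scale, where a rise could be compressed. Whether that happened was not tested. Ctss read 10.67, 10.68, 10.71 and 10.56 in TO_BMC. The receptor gene Cd14 read 11.92, 11.91, 12.03 and 12.06, and the adaptor gene Tyrobp 12.61, 12.63, 12.69 and 12.65. Over the 8 genes the lowest percentile of any signal among all probes of its array was 93.2, for Ctss at 24 h.

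**Figure D1:**
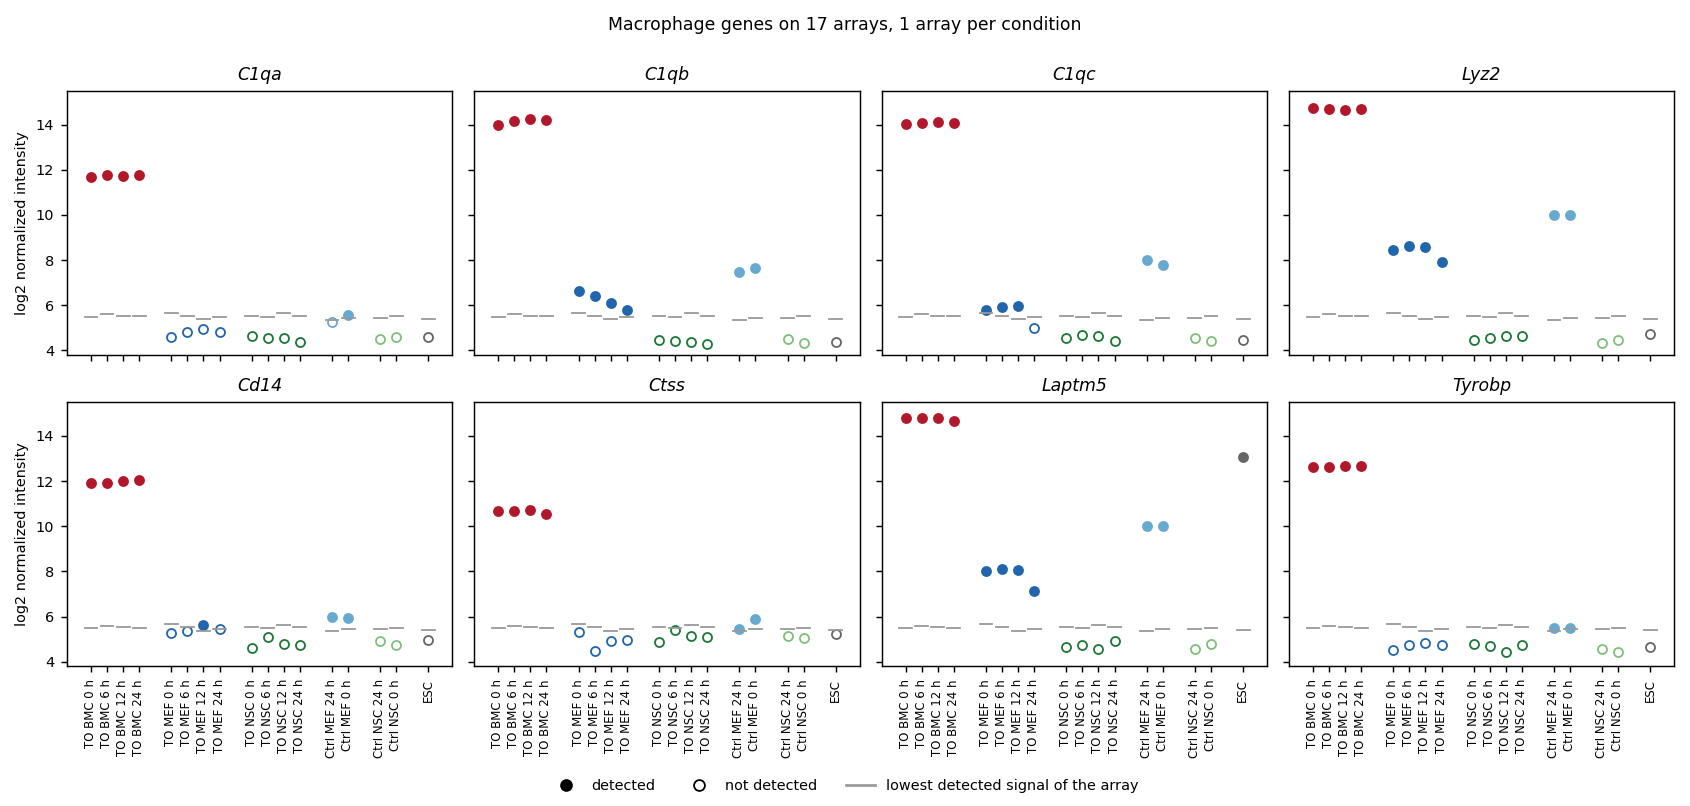
Log2 normalized intensity (vertical axis) of the 8 macrophage genes on the 17 arrays (horizontal axis), 1 panel per gene with its brightest probe; filled points are detected, open points are not, and grey bars mark the lowest detected signal of the array. The 4 TO_BMC points lie between 10.56 and 14.78 in every panel. The Ctrl_MEF points lie above the TO_MEF points for each gene, but for C1qa, Cd14, Ctss and Tyrobp both are near or below the lowest detected signal. Laptm5 alone is detected in ESC.

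The TO_NSC and Ctrl_NSC cultures gave no detected signal for any of the 8 genes on any of the 6 arrays, with log2 values of 4.29 to 5.39. At 0 h all 8 genes were at least 32-fold higher in TO_BMC than in TO_NSC (1.81% of the 15543 tested probes), from at least 35.3-fold for Ctss to at least 610-fold for Laptm5. "At least" means that the dimmer array had no detected signal and was set to its lowest detected signal. Against Ctrl_NSC 0 h all 8 were likewise at least 32-fold higher in TO_BMC (1.76% of probes). The same held for all 8 against TO_MEF at 0 h (1.15% of probes), where the ratios ran from at least 32.2-fold for Ctss to 295-fold for C1qc. These are single arrays and the genes were chosen with their levels known, so the ratios describe the arrays and carry no test. In RNA of a whole culture, fewer cells of a type and less RNA per cell cannot be told apart.

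Fibroblast cultures gave lower signals for the same transcripts, some of them below detection. In TO_MEF, C1qb was detected at all 4 times with 6.65, 6.40, 6.09 and 5.81 at 0, 6, 12 and 24 h, and in Ctrl_MEF it read 7.45 at 24 h and 7.65 at 0 h. All 4 TO_MEF values lay below both Ctrl_MEF values. C1qc read 5.80, 5.94 and 5.98 in TO_MEF at 0, 6 and 12 h and was not detected at 24 h (5.01), against 7.995 at 24 h and 7.79 at 0 h in Ctrl_MEF. C1qa was not detected in TO_MEF (4.58 to 4.97), while Ctrl_MEF gave 5.26 at 24 h, which was not detected, and 5.56 at 0 h, which was. The same 3 chains were thus all measurable at 0 h in Ctrl_MEF, while C1qa was below detection in TO_MEF.

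Lyz2 and Laptm5 were detected on all 6 fibroblast arrays, as C1qb was. The brightest Lyz2 probe read 8.45, 8.61, 8.57 and 7.94 in TO_MEF at 0, 6, 12 and 24 h, against 10.0035 at 24 h and 9.9985 at 0 h in Ctrl_MEF. In raw intensity this was 302, 315, 358 and 237 in TO_MEF, against 1268 at 24 h and 1311 at 0 h in Ctrl_MEF. A further Lyz2 probe gave 6.17, 6.78, 6.01 and 6.17 in TO_MEF, against 9.09 at 24 h and 9.13 at 0 h in Ctrl_MEF, and the third, at 8.65 to 8.78 in TO_BMC, was not detected in either fibroblast line. The probes thus gave ratios of different size, and Lyz1, a near-identical neighbour that the array also targets, may share signal with Lyz2, so the size of the Lyz2 difference is uncertain. Laptm5 read 8.02, 8.11, 8.07 and 7.13 in TO_MEF, against 10.018 at 24 h and 10.004 at 0 h in Ctrl_MEF. For both genes every TO_MEF value was below both Ctrl_MEF values. By their brightest probes both stood at percentiles of 90.6 to 90.7 among all probes in Ctrl_MEF, and at 71.7 to 82.1 in TO_MEF.

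The fibroblast signals of Cd14, Ctss and Tyrobp were close to background. Cd14 read 5.30, 5.36, 5.65 and 5.45 in TO_MEF and was detected there at 12 h only, whereas Ctrl_MEF gave 5.98 at 24 h and 5.94 at 0 h, both detected. Ctss was not detected in TO_MEF (4.49 to 5.30) and was detected in Ctrl_MEF at 5.44 at 24 h and 5.90 at 0 h. Tyrobp was not detected in TO_MEF (4.54 to 4.85) and was detected in Ctrl_MEF at 5.49 at 24 h and 5.52 at 0 h. Detected genes therefore numbered 4, 4, 5 and 3 of 8 on the TO_MEF arrays at 0, 6, 12 and 24 h, against 7 at 24 h and 8 at 0 h in Ctrl_MEF.

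At 0 h, 3 of the 8 genes were at least 2-fold lower in TO_MEF than in Ctrl_MEF (3.28% of tested probes), namely C1qc at 3.97-fold, Laptm5 at 3.96-fold and Lyz2 at 2.93-fold, and C1qb lay just outside at 1.996-fold lower. At 24 h there were 4 (5.95% of probes), with Laptm5 7.42-fold, C1qc at least 5.80-fold, Lyz2 4.19-fold and C1qb 3.12-fold lower in TO_MEF. No gene was 2-fold higher in TO_MEF at 0 h (2.47% of probes) or at 24 h (5.03%). The median log2 difference of the 8 genes was -0.99 at 0 h and -1.20 at 24 h (-0.63 and -1.08 with undetected values at the lowest detected signal), and that of all tested probes was 0.01 at both times. The 0 h median was -1.82 with the authors' values, -0.49 with no background correction and -0.65 with an offset of 50. C1qc, Lyz2 and Laptm5 were at least 2-fold lower at both times under each of the 5 ways of scaling tried, under which 1.32% to 6.89% of probes were so at 0 h and 3.1% to 9.82% at 24 h. Median scaling moved the median of all probes to -0.14 at 0 h and -0.13 at 24 h. Genotype, culture and array, including the dimmer TO_MEF arrays, cannot be told apart here because each line was 1 series of arrays.

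Other blood markers moved in part with the fibroblast signals of the macrophage genes. The summed linear level of the 20 other macrophage identity genes was 3921 to 5361 on the 4 TO_MEF arrays, against 8544 at 24 h and 9109 at 0 h in Ctrl_MEF, of which Gpnmb and Lgals3 made up most on every fibroblast array. Of those 20 genes 4 or 5 were detected in TO_MEF, against 10 at 24 h and 9 at 0 h in Ctrl_MEF, where Adgre1, the F4/80 antigen, read 6.59 at 24 h and 6.56 at 0 h, and Ms4a7 7.12 at 24 h and 7.21 at 0 h. Of the 13 pan-haematopoietic markers 1 to 4 were detected in TO_MEF, against 6 at 24 h and 5 at 0 h in Ctrl_MEF, and Ptprc, which encodes CD45, was not detected on any fibroblast array. Of the 12 fibroblast markers, the median log2 difference of TO_MEF over Ctrl_MEF was 0.01 at 0 h and -0.75 at 24 h. The part of these markers in the difference between the lines was not tested.

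**Figure D2:**
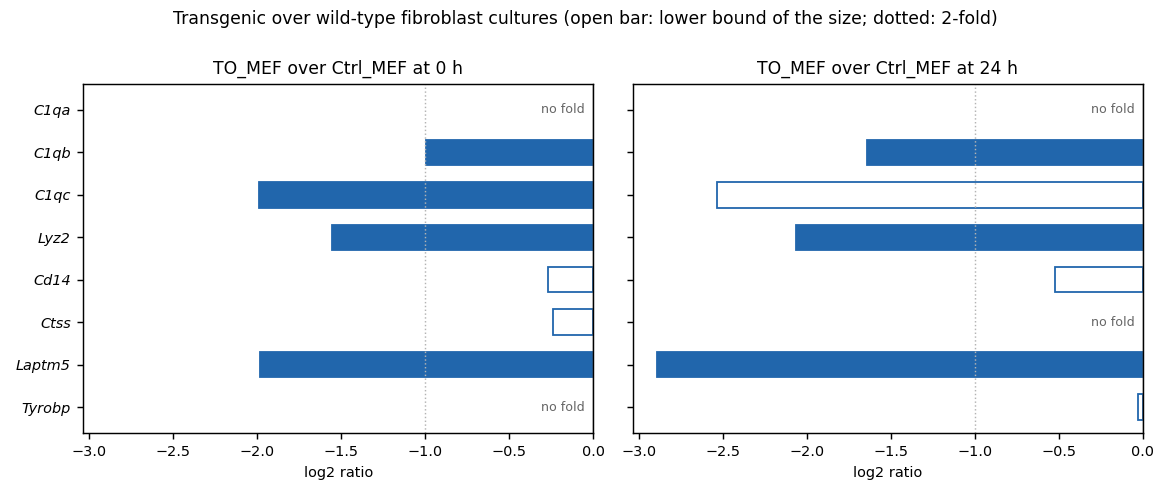
Log2 ratio of TO_MEF over Ctrl_MEF (horizontal axis) for the 8 macrophage genes at 0 h (left) and 24 h (right), from 1 array per line and time; open bars are lower bounds of the size, "no fold" marks genes without a usable detected signal, and the dotted line is 2-fold. No bar points to the right, and the longest is Laptm5 at 24 h with 7.42-fold lower signal in TO_MEF.

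The signals in wild-type fibroblasts also allow the bone marrow cultures to be set against them by probe. At 0 h TO_BMC was above Ctrl_MEF by 69.3-fold for C1qa, 81.0-fold for C1qb and 74.3-fold for C1qc. The ratio was 63.2-fold for Cd14, 136-fold for Tyrobp and 27.3-fold for Ctss. In Ctrl_MEF at 0 h, C1qa (5.56), Tyrobp (5.52), Ctss (5.90) and Cd14 (5.94) were near the lowest detected signal of the array (5.46). The size of their ratios is therefore uncertain. The ratio was 26.3-fold for Lyz2 and 27.5-fold for Laptm5, whose TO_BMC signals were near the top of the scale. For these reasons the ratios are not ranked against one another. Thus all 8 genes were at least 2-fold higher in TO_BMC than in Ctrl_MEF (14.4% of probes), and 5 were at least 32-fold higher (1.11% of probes). By the further detected Lyz2 probe the ratio was 8.66-fold.

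In detection of the 8 genes, ESC departed from the TO_NSC and Ctrl_NSC cultures in 1 gene. Laptm5 read 13.09 in ESC with a raw intensity of 10034, and it was 8.47-fold higher in ESC than in Ctrl_MEF at 0 h (18.1% of probes were at least 2-fold higher) and 3.25-fold lower in ESC than in TO_BMC at 0 h. The other 7 genes were not detected in ESC, with log2 values of 4.38 to 5.22, and each was at least 32-fold higher in TO_BMC at 0 h (1.61% of probes). Lyz2 was at least 24.0-fold, C1qc at least 5.21-fold and C1qb at least 4.71-fold lower in ESC than in Ctrl_MEF at 0 h (16.7% of probes were at least 2-fold lower). Of the 13 pan-haematopoietic markers 3 were detected in ESC, namely Coro1a at 6.31, Arhgdib at 6.58 and Was at 7.33. Of the 18 partners and downstream signalling genes of Tyrobp 3 were detected there, namely Plcg2 at 8.62, Inpp5d at 8.18 and Ptpn6 at 7.90. With 1 ESC array and 1 Laptm5 probe this level has no repeat.

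The change after induction was tested first as a step, in which the 3 later arrays of a line were averaged and set against its 0 h array, with limma over the 16 somatic arrays. None of the 8 genes passed an adjusted p of 0.05 in TO_BMC, where 0.0322% of all tested probes did, in TO_MEF (0.193%) or in TO_NSC (0.206%). At an unadjusted p under 0.05 there were 0 genes in TO_BMC, 1 in TO_MEF, C1qb with a change of -0.55 ± 0.22 (SE, limma adjusted p = 0.444), and 0 in TO_NSC, against 2.23%, 9.26% and 8.47% of all probes. Compared array by array with 0 h of their own line, none of the 8 genes was 2-fold higher or lower at any time in TO_BMC, TO_MEF or TO_NSC. Of all tested probes in TO_BMC, 0.0901%, 0.187% and 0.412% were at least 2-fold higher at 6, 12 and 24 h, and 0.27%, 0.392% and 0.959% lower. The shares in TO_MEF were 0.508%, 1.83% and 4.32% higher and 0.598%, 2.33% and 4.43% lower. Those in TO_NSC were 1.25%, 2.67% and 6.89% higher and 0.984%, 3.39% and 7.12% lower. The error of each probe is estimated from the scatter of all 16 somatic arrays around the fitted courses of their lines. It is then moderated over probes by limma. A probe therefore has the same standard error in each transgenic line, which is neither that line's own scatter nor variation between cultures.

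**Figure D3:**
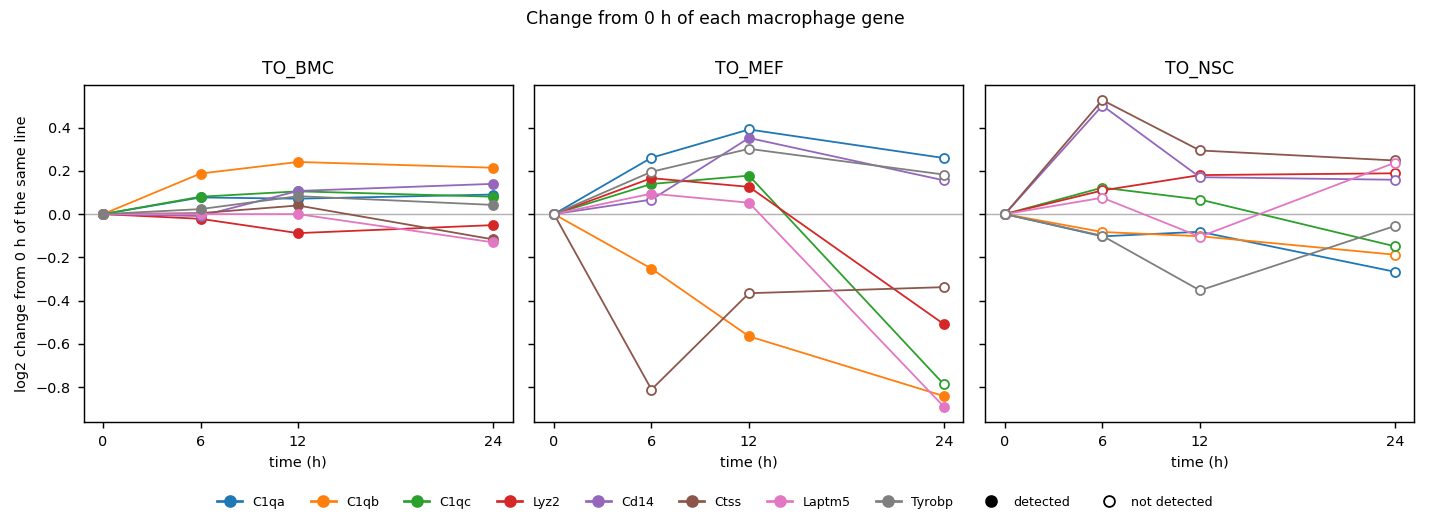
Log2 change from 0 h of the same line (vertical axis) against time in hours (horizontal axis) for the 8 macrophage genes in TO_BMC, TO_MEF and TO_NSC, 1 array per point; filled points are detected on that array. TO_BMC lines stay within 0.24 of 0, C1qb declines at each time in TO_MEF, C1qc, Lyz2 and Laptm5 drop there at 24 h, and no TO_NSC point is detected.

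As a linear trend over 0, 6, 12 and 24 h, 2 of the 8 genes fell in TO_MEF (4.89% of probes fell, and 11% passed in either direction). C1qb fell by 0.84 ± 0.19 over 24 h (SE, limma adjusted p = 0.0141) and Laptm5 by 0.94 ± 0.25 (adjusted p = 0.0299). C1qb had a lower log2 value at each later time than at the one before. Laptm5, in contrast, was at its 0 h level until 12 h and lower at 24 h only. The raw C1qb intensity in TO_MEF was 144, 129, 134 and 117, not far above the array medians of 97.5 to 106. At 24 h its log2 value of 5.81 was near the lowest detected signal of that array (5.46). With no background correction C1qb did not pass. Without the 24 h array Laptm5 had a trend of 0.11. C1qb had -1.13 without the 24 h array (adjusted p = 0.204) and -0.75 without the 0 h array (0.129). With the wild-type trend subtracted neither passed (1.14% of probes did; adjusted p = 0.352 for C1qb and 0.305 for Laptm5), nor did either under median scaling (0.0662 and 0.0708). Between the single Ctrl_MEF arrays at 24 and 0 h C1qb differed by -0.20 and Laptm5 by 0.01. C1qc had a trend of -0.84 ± 0.27 (adjusted p = 0.0624), which passed without the 0 h array (0.0279) or without the 12 h array (0.0276) and had a value of 0.36 without the 24 h array. Lyz2 had -0.57 ± 0.22 (adjusted p = 0.121) by its brightest probe and -0.23 ± 0.31 by the next. The median trend of the 8 genes in TO_MEF was -0.34 and that of all tested probes -0.01.

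In TO_BMC none of the 8 genes had a trend past the threshold (0.772% of probes), and none had an unadjusted p under 0.05 (5.85% of probes had). The fitted changes over 24 h ran from -0.13 for Laptm5 to 0.18 for C1qb, with standard errors of 0.19 to 0.33, and their median was 0.06 against 0.01 for all probes. The genes were chosen with their stable level in TO_BMC known, so the step and trend results there restate it and are no independent test. In TO_NSC none passed either (23.3% of probes did) and none had an unadjusted p under 0.05 (34.4% of probes had), with fitted changes of -0.25 to 0.21 in signals below detection. The difference of the trends was tested as well. Between TO_MEF and TO_BMC 0 of 8 genes passed (3.44% of probes, 3 genes at an unadjusted p under 0.05 as for 16.9% of probes), with C1qb nearest at -1.03 ± 0.27 (adjusted p = 0.0627). Between TO_MEF and TO_NSC 0 of 8 passed (11% of probes, 3 genes at an unadjusted p under 0.05 as for 26% of probes), with Laptm5 nearest at -1.15 ± 0.36 (adjusted p = 0.0567). Between TO_NSC and TO_BMC 0 of 8 passed (10.7% of probes, 0 genes at an unadjusted p under 0.05 against 26.2% of probes). The fall in TO_MEF was therefore not shown to differ from the course in the other lines.

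**Figure D4:**
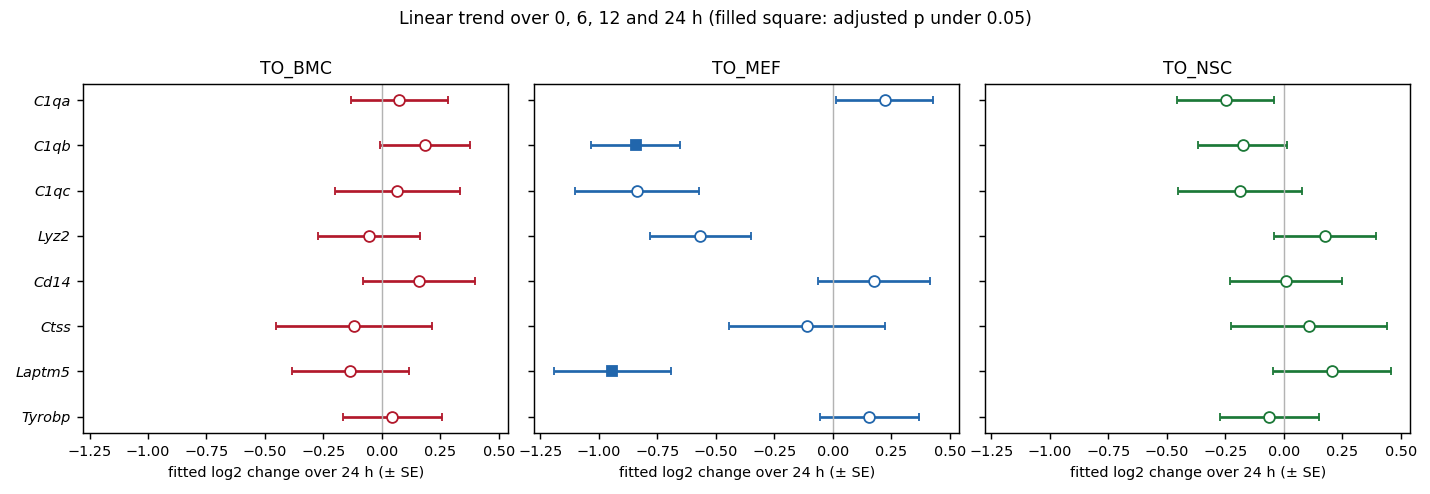
Fitted log2 change over 24 h with its SE (horizontal axis) for the 8 macrophage genes (vertical axis) in TO_BMC, TO_MEF and TO_NSC, from the linear trend in limma; filled squares have an adjusted p under 0.05. C1qb at -0.84 and Laptm5 at -0.94 in TO_MEF are the 2 filled squares.

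The level course of the macrophage genes in TO_BMC, known when they were chosen, stood beside a decline of other myeloid transcripts on the same arrays. Of 17 tested markers of neutrophils and their precursors 13 fell, with a median trend of -2.79, and none rose. Mpo, the myeloperoxidase of granules, read 11.70, 10.79, 8.44 and 5.23 (not detected) at 0, 6, 12 and 24 h, a trend of -6.71 ± 0.30 (limma adjusted p = 2.32e-07). Elane, neutrophil elastase, read 10.28, 9.76, 8.45 and 5.46 (not detected), a trend of -4.99 ± 0.35 (adjusted p = 7.91e-06, and 0.0567 without the 24 h array). The count was 8 without the 0 h array, without the 24 h array or with the authors' values, and 7 of 11 among probes detected on at least 4 arrays. Of 5 megakaryocyte markers 4 fell and of 5 mast cell and basophil markers 3 fell, with none rising. Over all tested probes 0.611% fell in TO_BMC and 0.772% passed in either direction. Of 17 other macrophage identity genes, 6 Fc gamma receptor genes, 22 lysosomal genes and 13 pan-haematopoietic markers 0 passed in TO_BMC, and at that share lists of this size would hold few calls or none. Their median trends were 0.03, 0.06, -0.08 and 0.13. Without a wild-type bone marrow culture, induction and time in culture cannot be told apart in TO_BMC.

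**Figure D5:**
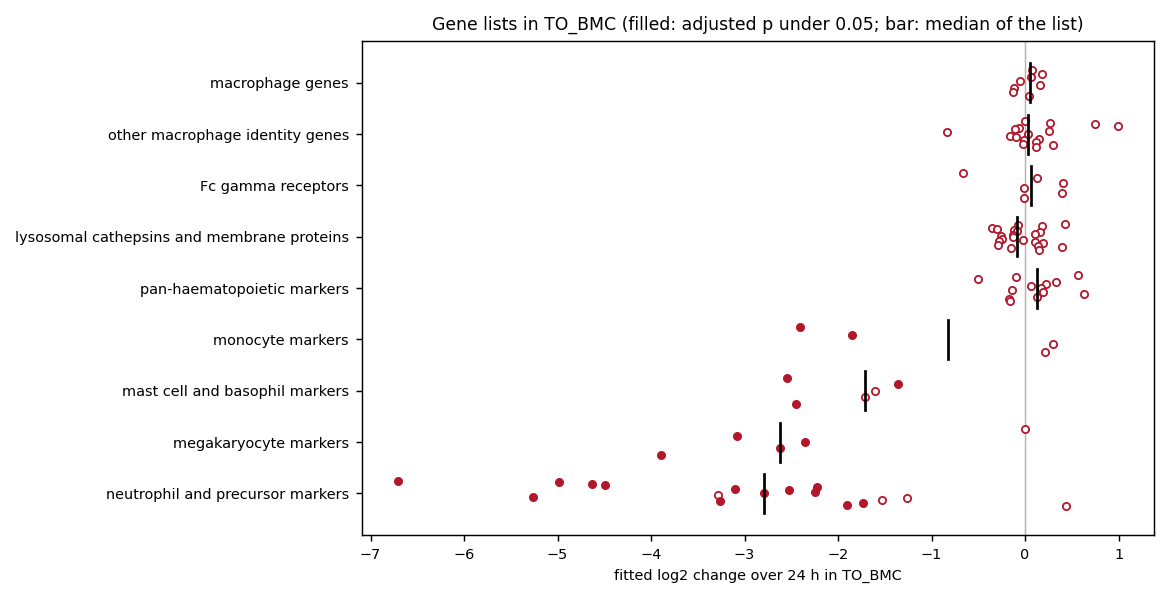
Fitted log2 change over 24 h in TO_BMC (horizontal axis) of each tested gene of 9 lists (vertical axis), from the linear trend in limma; filled points have an adjusted p under 0.05 and black bars are list medians. Macrophage genes have a median of 0.06 and no filled point, and neutrophil and precursor markers a median of -2.79 with 13 filled points.

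Genes that work with the 8 were examined by pathway in the trend fit. Of all tested probes 6.11% rose and 4.89% fell in TO_MEF, and 11.9% rose and 11.4% fell in TO_NSC. In TO_BMC 0.611% fell. Counts of 1 or 2 in the lists of this and the next paragraphs are too small to be set against those shares. They describe single genes, not the lists. Of 17 tested partners and downstream genes of Tyrobp, 1 fell in TO_BMC, the receptor gene Trem3 (-1.63 ± 0.20, limma adjusted p = 0.00140). In TO_MEF, 1 fell and 1 rose. Fcer1g, which encodes the gamma chain shared by Fc receptors, fell by 0.91 ± 0.19 (adjusted p = 0.00853), with 6.06, 5.93, 5.77 and 5.16 (not detected) at 0, 6, 12 and 24 h in TO_MEF against 8.32 at 24 h and 8.55 at 0 h in Ctrl_MEF. Plcg2, a phospholipase of immune receptor signalling, rose by 1.85 ± 0.40 (adjusted p = 0.0109). In TO_NSC, 1 fell, the phosphatase gene Inpp5d (-0.59 ± 0.19, adjusted p = 0.0435), whose signal was below detection on all 4 arrays.

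Of 11 ligands, regulators and relatives of Csf1r, 2 fell in TO_MEF, 1 rose in TO_NSC and 0 changed in TO_BMC. Cebpb, a transcription factor of macrophage activation that fibroblasts also express, read 12.16, 10.78, 9.87 and 9.37 in TO_MEF at 0, 6, 12 and 24 h, a trend of -2.67 ± 0.38 (limma adjusted p = 0.000948), against 11.67 at 24 h and 11.65 at 0 h in Ctrl_MEF. Runx1, a transcription factor of blood formation, read 7.20, 6.46, 5.80 and 5.35 (not detected) in TO_MEF, against 6.94 at 24 h and 6.62 at 0 h in Ctrl_MEF. Its trend was -1.82 ± 0.33 (adjusted p = 0.00368, and 0.0827 without the 0 h array). Csf2ra, a subunit of the receptor for granulocyte-macrophage colony-stimulating factor, rose in TO_NSC by 1.63 ± 0.31 (adjusted p = 0.00268). Spi1, which encodes PU.1, read 10.69, 10.66, 10.56 and 9.99 in TO_BMC and was not detected on any of the other 13 arrays.

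Complement genes beyond C1q gave 0 of 13 changed in TO_BMC and in TO_MEF, and 2 of 13 fell in TO_NSC, where 23.3% of all probes passed in either direction. C2, the serine protease of the classical pathway, read 7.82, 6.79, 5.66 and 5.18 (not detected) in TO_NSC, a trend of -2.62 ± 0.38 (limma adjusted p = 0.000500), against 9.42 at 24 h and 8.69 at 0 h in Ctrl_NSC. Cd93, a surface receptor once linked to C1q, fell by 1.56 ± 0.37 (adjusted p = 0.00884). Of 17 genes of the lipopolysaccharide and Toll-like receptor pathway, in which Cd14 works, 0 changed in TO_BMC, 1 rose and 1 fell in TO_MEF (11% of all probes passed there), and 1 rose and 1 fell in TO_NSC. These were Irak3, an inhibitor of the pathway (1.06 ± 0.29, adjusted p = 0.0322), and Tlr6, a receptor (-0.78 ± 0.21, adjusted p = 0.0344), in TO_MEF. In TO_NSC they were the adaptor genes Myd88 (0.68 ± 0.22, adjusted p = 0.0422) and Tirap (-1.07 ± 0.36, adjusted p = 0.0466).

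Ctss, Lyz2 and Laptm5 rose in none of the 3 lines, while other lysosomal genes rose in TO_MEF and TO_NSC. However, Ctss, Lyz2 and Laptm5 were below detection on every TO_NSC array, and Ctss on every TO_MEF array. Lyz2 and Laptm5 were near the top of the scale in TO_BMC. A small rise could have gone unseen in those signals. Of 22 other lysosomal genes 6 rose and 0 fell in TO_MEF, with a median trend of 0.40. There 6.11% of all probes rose and the median of all probes was -0.01. In TO_NSC 14 rose and 1 fell, with a median of 0.88, where 11.9% of all probes rose and the median of all was 0.01. Scarb2, a lysosomal membrane protein, rose by 1.57 ± 0.24 in TO_MEF (limma adjusted p = 0.00120) and by 0.94 ± 0.24 in TO_NSC (0.0125). Grn, which encodes progranulin, rose by 1.18 ± 0.31 in TO_MEF (0.0287) and by 1.49 ± 0.31 in TO_NSC (0.00473). Laptm4b, a relative of Laptm5, rose by 1.67 ± 0.29 in TO_MEF (0.00277). Ctsc, which encodes cathepsin C, was the gene that fell in TO_NSC, by 2.88 ± 0.43 (0.000627), with 10.57, 10.20, 9.92 and 7.72 at 0, 6, 12 and 24 h. In TO_MEF 3 rose with the authors' values. With the wild-type trend subtracted the counts that rose were 2 in TO_MEF and 5 in TO_NSC, with medians of 0.44 and 0.96 (1.14% and 8.37% of all probes passed). Without the 24 h array the counts were 0 in both lines, with medians of 0.34 in TO_MEF and 0.62 in TO_NSC, and the trend of Scarb2 was 1.39 in TO_MEF and 1.37 in TO_NSC.

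Among other macrophage identity genes 0 of 17 changed in TO_MEF and 1 rose in TO_NSC, the phagocytic receptor gene Mertk (1.48 ± 0.44, limma adjusted p = 0.0284). Of 13 pan-haematopoietic markers, 2 fell and 1 rose in TO_MEF. Cd52, a surface antigen of leukocytes, fell by 1.06 ± 0.27 (adjusted p = 0.0243) and Evi2a by 1.15 ± 0.32 (0.0391), while Arhgdib rose by 1.12 ± 0.25 (0.0122). With the wild-type trend subtracted, Csf2ra, C2, Tirap, Grn and Ctsc remained past the threshold in TO_NSC and Scarb2 in both lines, with Laptm4b in TO_MEF, among the genes named here in those lines. Without the 24 h array of the line, the named genes still past the threshold were Cebpb and Runx1 in TO_MEF, C2 in TO_NSC and Mpo in TO_BMC. The calls of the other named list genes were lost in a fit with 1 array fewer, while their trends kept their sign. Some trends were larger, such as 2.09 for Plcg2, -1.37 for Tlr6, -1.73 for Cd52 and -2.20 for Cd93. Others were smaller, such as -1.31 for Ctsc in TO_NSC, -1.06 for Trem3 in TO_BMC, and 0.49 for Grn and 0.35 for Arhgdib in TO_MEF. The macrophage gene Laptm5 lost its call in TO_MEF and changed sign.

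Each of the 8 genes was closely tracked by the other 7 over the arrays. Pearson's r between a gene and the mean of the other 7, each centred, was 0.869 for Laptm5, 0.940 for Lyz2 and 0.968 to 0.994 for the rest, over 17 arrays. The 4 TO_BMC arrays stand apart from the other 13, so any gene high in TO_BMC alone gets a high r, and these values describe that shape. Of 10564 other genes, the 10 whose pattern was nearest to the mean of the 8 had r of 0.992 to 0.997. In falling order they were Mocos, Alox5ap, Clec4d, Fcer1g, Il15, Tlr4, Ms4a6d, Ms4a7, Tmem106a and Ccl9. Alox5ap, which encodes the activator of 5-lipoxygenase in leukotriene synthesis, read 13.24 to 13.43 in TO_BMC, 4.99 to 6.48 in TO_MEF, and 6.72 at 24 h and 6.82 at 0 h in Ctrl_MEF. Ccl9, a chemokine gene, read 13.17 to 13.61 in TO_BMC, and 6.999, 6.61, 6.60 and 5.88 in TO_MEF at 0, 6, 12 and 24 h, against 7.27 at 24 h and 7.34 at 0 h in Ctrl_MEF. By Spearman's rank correlation 1 of these 10 stayed among the nearest 10.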

How the data were processed

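RNA of 17 cultures was measured on Illumina mouse bead arrays, 1 array per condition, each a different line or time. The deposited intensity values are raw bead signals and the deposited detection p-values accompany them. The authors' log2 values are normalized, with a median of 3.77 on every array, and the submitters' processing notes name BeadStudio 3.2, RMA and lumi without order. From the raw intensities, normexp background correction (offset 16, negative controls inferred from the detection p) and quantile normalization were run in limma 3.58.1 (R 4.3.3). Of 25697 probes 23978 had 1 gene symbol and 1719 none, and the brightest probe stands for a gene. The 15543 probes detected on at least 1 array were tested over 16 somatic arrays, without ESC, with Benjamini-Hochberg adjustment and a threshold of 0.05. An undetected value was set to the lowest detected signal of its array, or its own signal if higher. The fit was tested on simulated data. Precision is limited by 1 array per condition, so p-values rest on the scatter around a step or line. Genes named beyond the 8 are up to 5 past the threshold per list and line, the 3 of highest level in a list on the arrays described, and the 10 nearest patterns. Spi1, Ptprc, Adgre1 and, in TO_NSC, Scarb2 were named after their values were seen. The genes, lists and tests were chosen with earlier results of these data known. Alternatives were the authors' values, no background correction, an offset of 50, median scaling, other probe filters, other trends and leaving out arrays.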

Additional observations from a re-analysis of the deposited data

Results flagged for a closer look

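The trend over 24 h differed between lines for several genes named beside the macrophage genes, by limma's test of the difference with adjustment over all tested probes, whereas none of the 8 macrophage genes did. All differences are on the log2 scale. For TO_MEF minus TO_BMC they were 6.28 for Mpo (limma adjusted p = 1.80e-05), 5.28 for Elane (0.000169), 1.53 for Trem3 (0.0129), -2.41 for Cebpb (0.0310), -1.87 for Runx1 (0.0444), 1.82 for Scarb2 (0.0112) and 1.82 for Laptm4b (0.0286). For TO_NSC minus TO_BMC they were 6.48 for Mpo (1.28e-05), 5.18 for Elane (0.000196), 1.82 for Trem3 (0.00201), 1.63 for Csf2ra (0.0336), -2.0002 for C2 (0.0333), -1.76 for Cd93 (0.0469), 1.19 for Scarb2 (0.0389), 1.78 for Grn (0.0234) and -3.06 for Ctsc (0.00794). For TO_MEF minus TO_NSC, signalling and receptor genes differed by -0.94 for Fcer1g (0.0414), 2.59 for Plcg2 (0.0112), -2.12 for Csf2ra (0.00870), 1.41 for Irak3 (0.0432) and -1.19 for Tlr6 (0.0242). In the same comparison the transcription factor genes Cebpb and Runx1 differed by -2.06 (0.0291) and -1.73 (0.0303), C2 by 2.29 (0.0162), Laptm4b by 1.49 (0.0326), Ctsc by 2.25 (0.0325), Cd52 by -1.44 (0.0292) and Arhgdib by 1.18 (0.0480). Mpo and Elane were not detected in TO_MEF or TO_NSC, so their differences carry the decline in TO_BMC.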

How the results depend on the processing

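No paired analysis was possible because each condition had 1 array and every array carries the replicate number 1. Of 133 alternative values for the main results, 117 counted as unchanged and 16 did not. Unchanged values kept their direction and side of the threshold or moved by less than the spread of an array. A count was also held unchanged when near the main one, as 3 is to 2. Many of the 117 were counts of 0 genes that stayed at 0, in the step fits and in the TO_BMC and TO_NSC trends. The total therefore says little about the TO_MEF trend. The count of 2 macrophage genes with a falling trend in TO_MEF was 1 with the authors' values, with no background correction, without the wild-type lines or with the rank of time, and 0 under median scaling or with the wild-type trend subtracted. Leaving out 1 TO_MEF array at a time gave 0 (without 24 h) to 3 (without 12 h) genes. The trend in TO_MEF then ranged from -1.13 to -0.75 for C1qb, which kept its sign. It ranged from -1.40 to 0.11 for Laptm5, from -1.34 to 0.36 for C1qc and from -0.95 to 0.25 for Lyz2, the highest value of these 3 being the one without 24 h. The median change of the 8 genes at 24 h in TO_MEF was -0.42, and -0.19 with no background correction, and at 6 h in TO_NSC it was 0.09, and 0.29 with the authors' values. The median difference of TO_BMC over TO_MEF at 0 h was 6.93, against 7.43 with the authors' values, 5.92 with no background correction and 6.36 with an offset of 50. That of TO_MEF over Ctrl_MEF at 0 h was -0.99, against -1.82, -0.49 and -0.65 in the same order. The cause of these shifts was not tested. A step without the 0 h array could not be fitted. List counts by setting, named list genes by setting and the fibroblast line ratios under other scalings were added after seeing the data. Undetected signals near background, 1 array per condition and signals near the top of the scale limit what could be seen.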

Other observations

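Further blood lineages in the TO_BMC arrays were examined by the same trend. Of 4 tested monocyte markers 2 fell, Ly6c1 and F13a1, of 5 B cell markers 2 fell, Cd79a and Blk, and none of either list rose, while 0.611% of all probes fell. Of 13 dendritic cell and antigen presentation markers, 5 osteoclast markers and 3 erythroid markers, 0 passed the threshold in TO_BMC. In TO_NSC 2 of 6 Fc gamma receptor genes rose, Fcgr3 and Fcgrt, where 11.9% of all probes rose, and Fcgrt alone passed with the wild-type trend subtracted.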
